A study of Mus musculus with 10 samples.

Results

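The microRNAs miR-103 and miR-107 were examined in the livers of Tsc1 mutant mice and their control littermates. They were the 2 rows, of 285 mature miRNAs in the deposited table, whose name was miR-103 or miR-107 once the species prefix and any arm were removed. The study made 10 small RNA libraries from livers of mice aged 14 weeks, of which 5 came from animals labelled L-Tsc1KO (titled TSC1 mutant) and 5 from control littermates. Tsc1 encodes a subunit of the TSC complex, which restrains the growth-promoting kinase complex mTORC1. The sources used here do not give the promoter or Cre line behind the deletion, the strain, the sex, or which alleles the controls carry. Tsc1 mRNA was not analysed here, so the genotypes were not checked against the deleted gene. Each library was labelled as a separate replicate. That each came from a separate animal is not stated, and if some did not, the p-values measure only the spread between libraries.

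MicroRNAs are short RNAs that guide Argonaute proteins to messenger RNAs, mostly through the seed at bases 2 to 8, and lower the output of those messages. The miR-103 and miR-107 genes lie within genes for pantothenate kinases, the enzymes that begin the synthesis of coenzyme A. In mouse liver and fat these miRNAs are known as regulators of insulin sensitivity, with caveolin-1, a protein that stabilises the insulin receptor at the cell surface, as a described target. Host messages, targets and insulin signalling were not measured by this assay.

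The mature sequences are shown because the pair can be told apart by little else, with the seed in capitals and each sequence running 5′ to 3′ (RefSeq, GRCm38.p6).
miR-103: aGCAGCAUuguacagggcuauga
miR-107: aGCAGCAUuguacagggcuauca
miR-16: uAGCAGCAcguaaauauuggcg
miR-15a: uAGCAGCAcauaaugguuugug
Both members were 23 bases long and shared 22 bases. Their sole difference was G22C, counted from 1 at the 5′ end of miR-103, with 1 base after it. A read that ends before base 22 would therefore match both equally. The sources used here do not say how the authors assigned such reads, so the split between the pair is uncertain. The seed GCAGCAU was held by 2 of 1679 mature mouse miRNAs in the RefSeq table, or 0.119%, and these were miR-103 and miR-107. The letters AGCAGC begin at base 1 in this pair. In miR-15a, miR-15b, miR-16, miR-195, miR-322, miR-497 and miR-503 they begin at base 2, as they do in 11 of the 1679 mature miRNAs, or 0.655%. The deposited names carry no arm, and the arm shown is the one that holds AGCAGC near its 5′ end.

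The mature miR-103 has 2 hairpins and miR-107 has 1, which are shown with the mature arm in capitals because the deposited value cannot separate the hairpins of miR-103.
Mir103-1: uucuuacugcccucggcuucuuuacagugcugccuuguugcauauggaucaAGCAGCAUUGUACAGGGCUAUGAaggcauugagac
Mir103-2: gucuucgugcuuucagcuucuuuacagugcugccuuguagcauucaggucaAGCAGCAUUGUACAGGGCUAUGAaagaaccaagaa
Mir107: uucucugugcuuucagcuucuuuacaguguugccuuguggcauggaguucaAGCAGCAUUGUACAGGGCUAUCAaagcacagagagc
Mir103-1 lies at chr11:35782396-35782481 on the plus strand within Pank3, Mir103-2 at chr2:131288052-131288137 on the plus strand within Pank2, and Mir107 at chr19:34820687-34820773 on the minus strand within Pank1 (GRCm38). In the GENCODE M21 annotation each lies on the strand of its host, in intron 5 of a principal transcript of 7 exons, and overlaps 0 annotated exons of that host. The miR-103 hairpins differ from each other by 17 single-base edits over 86 bases, yet give the same mature sequence, so the value of miR-103 combines both.

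The libraries held 6228497 to 12129069 reads over the listed miRNAs, and values are given as the authors' normalised reads. The hepatocyte miRNA miR-122 was the most abundant of its marker list in both genotypes, at 2699953 ± 444090 normalised reads in Tsc1 mutants and 3174502 ± 763064 in controls (SD, n = 5 each). Of all 285 miRNAs, 37 passed a limma adjusted p of 0.05, which is 13% (10.9% higher and 2.11% lower in mutants). The 6 lower calls became 2 without Tsc1 mutant replicate 4, 3 without control replicate 3 or without control replicate 5, 10 without control replicate 1, and 23 with limma array weights. Some libraries stood apart. The replicates numbered 1 of both genotypes departed in a like way from the rest of their groups, and control replicate 2 had the highest biliary epithelial and striated muscle miRNAs of the controls. Libraries of 1 genotype had adjoining library numbers, and an effect of that order cannot be told apart from genotype.

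Of the pair, miR-103 was the abundant member. It had 26690, 34682, 30852, 34506 and 30965 normalised reads in Tsc1 mutant replicates 1 to 5, against 22366, 27660, 30473, 35628 and 24283 in control replicates 1 to 5. The groups overlapped: the highest value of all was in control replicate 4, 0 of 5 mutants lay above every control, and 4 of 5 mutants lay above the control mean. Means were 31539 ± 3279 normalised reads in mutants and 28082 ± 5243 in controls (SD, n = 5 each). The log2 difference was 0.18 ± 0.14 (SE), a ratio of 1.13 with a 95% interval of 0.909 to 1.41, and it did not pass (limma adjusted p = 0.543). Without overlap, all mutants lay above all controls for 10.2% of the 285 miRNAs and below them for 2.46%, and miR-103 was in neither set.

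Values of miR-107 were lower than those of miR-103 in all 10 libraries and spread less. It had 3207, 3453, 3635, 3357 and 3090 normalised reads in Tsc1 mutant replicates 1 to 5, against 3101, 2499, 2611, 3244 and 2316 in control replicates 1 to 5. Here 3 of 5 mutants lay above every control and 3 of 5 controls below every mutant, while control replicates 1 and 4 lay within the range of the mutants. Means were 3348 ± 212 normalised reads in mutants and 2754 ± 399 in controls (SD, n = 5 each). The log2 difference was 0.29 ± 0.13 (SE), a ratio of 1.22 with a 95% interval of 1.00 to 1.49. Its unadjusted limma p was 0.0459, where 22.5% of all miRNAs had one under 0.05, and its limma adjusted p was 0.205. Of the 285 miRNAs, 62 had a smaller p than miR-107 and 123 a smaller one than miR-103. With limma array weights, which give less weight to libraries that fit poorly, miR-107 passed as higher at 0.35 (adjusted p = 0.0341), where 63 miRNAs passed in all.

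**Figure D1:**
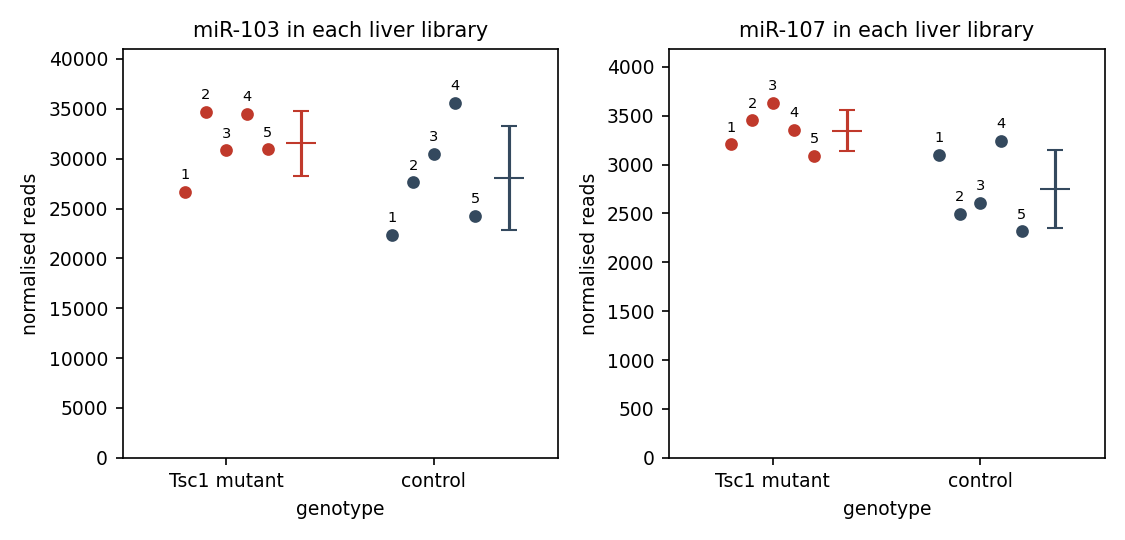
Normalised reads (vertical axis, linear from 0) of miR-103 and miR-107 in 5 Tsc1 mutant and 5 control libraries; each point is 1 library labelled by replicate number, and the bar beside each group is its mean ± SD. The genotypes overlap for miR-103, while 3 of 5 mutants lie above every control for miR-107.

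As a share of all listed miRNA reads, miR-103 made up 0.342 ± 0.0336% in Tsc1 mutants and 0.293 ± 0.0384% in controls (SD, n = 5 each). The share of miR-107 was 0.0364 ± 0.00264% in mutants and 0.0290 ± 0.00499% in controls (SD, n = 5 each). Counting error was small beside the spread between libraries. The least read value of miR-107 rested on 1928 reads, in control replicate 4, a share of 0.0310% with a 95% exact binomial interval of 0.0296 to 0.0324%. For miR-103 the fewest reads were 21178, in the same library, a share of 0.340% with an interval of 0.335 to 0.345%. By abundance miR-103 ranked 27 to 29 in mutants and 29 to 32 in controls, and miR-107 ranked 63 to 71 in mutants and 70 to 79 in controls.

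The coefficient of variation of miR-107 was 6.34% in Tsc1 mutants and 14.5% in controls. Among the 68 miRNAs with a mean within 4-fold of its own, 2 were less variable in mutants and 8 in controls, and the medians were 19.8% in mutants and 27.5% in controls. For miR-103 the coefficient was 10.4% in mutants and 18.7% in controls, against medians of 12.7% in mutants and 17.9% in controls for 33 miRNAs of like level. Its neighbours in mean level were miR-99a, at 37836 ± 2450 normalised reads in mutants and 37227 ± 5966 in controls, and miR-125b-5p, at 25186 ± 7260 in mutants and 30943 ± 11089 in controls (SD, n = 5 each). Those of miR-107 were miR-1948, at 3033 ± 571 in mutants and 3364 ± 916 in controls, and miR-423-5p, at 2224 ± 743 in mutants and 3801 ± 2224 in controls (SD, n = 5 each). None of these 4 neighbours passed, with limma adjusted p-values of 0.952, 0.777, 0.875 and 0.651.

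Summed, the pair gave 34887 ± 3360 normalised reads in Tsc1 mutants and 30836 ± 5405 in controls (SD, n = 5 each), a log2 difference of 0.19. Because both carry the same seed, this sum is the level of the GCAGCAU seed from these genes. It made up 0.378 ± 0.0346% of miRNA reads in mutants and 0.322 ± 0.0393% in controls (SD, n = 5 each). Values overlapped, at 29897 to 38136 normalised reads in mutants and 25467 to 38872 in controls. The part contributed by miR-107 was 9.65 ± 0.902% in mutants and 9.08 ± 1.75% in controls (SD, n = 5 each).

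A ratio taken within a library does not depend on how libraries were scaled. Between miR-103 and miR-107 it does depend on how reads ending before base 22 were assigned, which is not known. The ratio of miR-103 to miR-107 was 8.32, 10.04, 8.49, 10.3 and 10.02 in Tsc1 mutant replicates 1 to 5, against 7.21, 11.1, 11.7, 11.0 and 10.5 in control replicates 1 to 5. Control replicate 1 was the lowest of all 10 libraries and the other 4 controls were the highest, with every mutant in between. Over all libraries the mutants averaged 9.43 ± 0.944 and the controls 10.3 ± 1.77 (SD, n = 5 each), a log2 difference of -0.11 ± 0.14 (SE) that did not pass (2-sided exact permutation p = 0.460, adjusted p = 0.460 over 2 ratios). This value was decided by 1 library. Without control replicate 1 the groups did not overlap, at 8.32 to 10.3 in 5 mutants and 10.5 to 11.7 in 4 controls, and the mutants were lower by a log2 difference of -0.23 (exact permutation p = 0.0159, adjusted p = 0.0159). Without both replicates 1 it was -0.19 (exact permutation p = 0.0286, adjusted p = 0.0286), the smallest p that 4 against 4 allows. Left out singly, no other library let this ratio pass. Control replicate 1 was singled out by this same ratio, so these p-values are descriptive and not a test of genotype.

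The second ratio set miR-103 against miR-16, the most abundant other miRNA of the AGCAGC group and one known for restraining cell cycle genes. It was 4.44, 4.55, 4.16, 4.29 and 3.89 in Tsc1 mutant replicates 1 to 5, against 3.62, 4.93, 5.18, 4.98 and 5.14 in control replicates 1 to 5. Both ratios hold miR-103, which was lowest of all libraries in control replicate 1, so they are not independent. The order was the same as for miR-107: control replicate 1 lay below all mutants and the other 4 controls above them. Means were 4.27 ± 0.259 in mutants and 4.77 ± 0.651 in controls (SD, n = 5 each), with a log2 difference of -0.15 ± 0.11 (SE; 2-sided exact permutation p = 0.190, adjusted p = 0.381). Without control replicate 1 the mutants were lower, at -0.25 on the log2 scale (exact permutation p = 0.00794, adjusted p = 0.0159). Without both replicates 1 the difference was -0.26 (exact permutation p = 0.0286, adjusted p = 0.0286). Left out singly, no other library let this ratio pass. The same limit holds, as control replicate 1 was also the outlying control of this ratio.

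**Figure D2:**
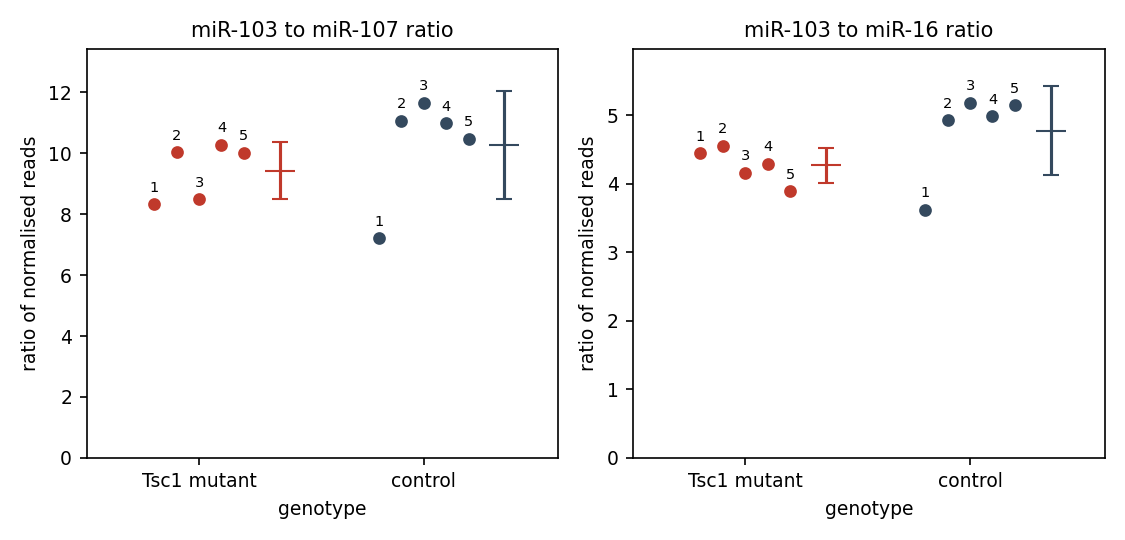
Ratio of miR-103 to miR-107 and of miR-103 to miR-16 (vertical axis, linear from 0) within each of 5 Tsc1 mutant and 5 control libraries; points are libraries labelled by replicate number and bars are mean ± SD. Control replicate 1, at 7.21 and 3.62, lies below all mutants, and the other 4 controls lie above all mutants in both ratios.

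Control replicate 1 differed from the other controls in further respects, whose part in the ratios was not tested. Its 10 leukocyte miRNAs summed to 33403 normalised reads, against 20173 to 23795 in the other 4 controls, and its 2 endothelial miRNAs summed to 113035, against 151157 to 160119. In mutants these sums were 19058 to 25841 for leukocyte miRNAs and 114892 to 160253 for endothelial miRNAs. In bulk liver RNA, fewer cells of a type and less RNA per cell cannot be told apart.

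Among the 7 other measured miRNAs of the AGCAGC group, which are known to share targets with the pair, 0 passed by limma adjusted p, with 1 at an unadjusted p under 0.05, where 13% and 22.5% of all 285 did. Neither count is read as a result about the group. Their median log2 difference was 0.04, against -0.06 over all 285 miRNAs. The 1 below 0.05 was miR-16, at 6009, 7614, 7423, 8049 and 7960 normalised reads in Tsc1 mutant replicates 1 to 5, against 6176, 5616, 5880, 7148 and 4723 in control replicates 1 to 5. All but mutant replicate 1 lay above every control, and the log2 difference was 0.33 ± 0.14 (SE; unadjusted p = 0.0365, limma adjusted p = 0.179). With array weights it passed as higher, at 0.41 (limma adjusted p = 0.0213), where 63 of all 285 miRNAs passed, 40 of them as higher.

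A second cell cycle regulator, miR-15a, lies beside the hairpin Mir16-1 on chromosome 14, while miR-15b lies beside Mir16-2 on chromosome 3. Both hairpins give the same mature miR-16, so its value combines them. Values of miR-15a were 1228, 772, 1075, 799 and 827 normalised reads in Tsc1 mutant replicates 1 to 5, against 1335, 466, 573, 707 and 650 in control replicates 1 to 5. Every mutant lay above 4 of the 5 controls, and control replicate 1 lay above them all. The log2 difference was 0.41 ± 0.27 (SE; limma adjusted p = 0.444). Without control replicate 1 it was 0.64 (limma adjusted p = 0.0437), the only call among these 7, where 44 of all 285 miRNAs passed. Control replicate 1 was the outlying control for miR-15a itself, so that call is descriptive. The other members were miR-15b at -0.08, miR-195 at -0.25, miR-322 at 0.04, miR-497 at -0.21 and miR-503 at 0.09 on the log2 difference scale. Their limma adjusted p-values ran from 0.527 for miR-195 to 0.957 for miR-322 and miR-503. No direction was shared, as 2 of these 5 were above 0 and 3 below.

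In mean level over the 10 libraries the group ran from miR-103 at 29811, through miR-16 at 6660, miR-107 at 3051 and miR-15a at 843, to miR-503, which averaged 50.3 ± 20.1 normalised reads in Tsc1 mutants and 55.1 ± 39.3 in controls (SD, n = 5 each). Each of miR-103, miR-16 and miR-107 was separated from the next by values that did not overlap over the 10 libraries. Below miR-107 the order is less firm, since the ranges of miR-15a and miR-15b overlapped. How evenly different miRNAs are captured by the library preparation was not tested, and the order of levels is subject to that.

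The insulin and glucose list held 22 other measured miRNAs, of which 2 rose and 1 fell by limma adjusted p, with a median log2 difference of -0.03. That share is near the 13% called over all 285, so the calls are given for the single miRNAs and not as a result about the list. The 2 that rose were miR-802, which impairs insulin action in obese mice, and miR-29a, which lowers insulin signalling in hepatocytes. Mean levels of miR-802 were 1583 ± 285 normalised reads in Tsc1 mutants and 495 ± 165 in controls (SD, n = 5 each), a log2 difference of 1.72 (limma adjusted p = 0.000258). For miR-29a they were 116048 ± 5673 in mutants and 92084 ± 7801 in controls (SD, n = 5 each), a log2 difference of 0.34 (limma adjusted p = 0.0395). This call was lost with scaling to equal totals, with or without miR-122, and with TMM or upper quartile scaling, at log2 differences of 0.27 to 0.38 (limma adjusted p = 0.0588 to 0.156), and without the intensity trend (limma adjusted p = 0.117). The one that fell was miR-320, at 3380 ± 696 in mutants and 5812 ± 1460 in controls (SD, n = 5 each; log2 difference -0.77, limma adjusted p = 0.0353). The calls of miR-29a and miR-320 were fragile. Omitting any 1 of 8 libraries, which were all mutants except replicate 2 and all controls except replicate 1, left 1 call, miR-802. In these the log2 differences of miR-29a stayed at 0.31 to 0.35 and those of miR-320 at -0.81 to -0.65. Without Tsc1 mutant replicate 2 the call of miR-29a alone was lost, at 0.36 (limma adjusted p = 0.0638). Without control replicate 1 there were 5 calls on the list, where 44 of all 285 miRNAs passed. Added were miR-222 as lower at -0.68 and miR-34a as higher at 2.06 (limma adjusted p = 0.0212 and 0.0210). Control replicate 1 was singled out by values of these same data, so the added calls are descriptive.

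The log2 difference of miR-107 was close in size to that of miR-29a, and its interval was wider, at 0.0063 to 0.58 against 0.12 to 0.55. The 3 most abundant members of the list that did not pass were miR-122 at -0.21, miR-378 at 0.44 and miR-143 at -0.39 on the log2 difference scale. Their limma adjusted p-values were 0.608, 0.165 and 0.424. The first of these is the dominant hepatocyte miRNA, the second lies in an intron of Ppargc1b, a coactivator of mitochondrial genes, and the third is abundant in smooth muscle and has been linked to insulin resistance in obese mouse liver.

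**Figure D3:**
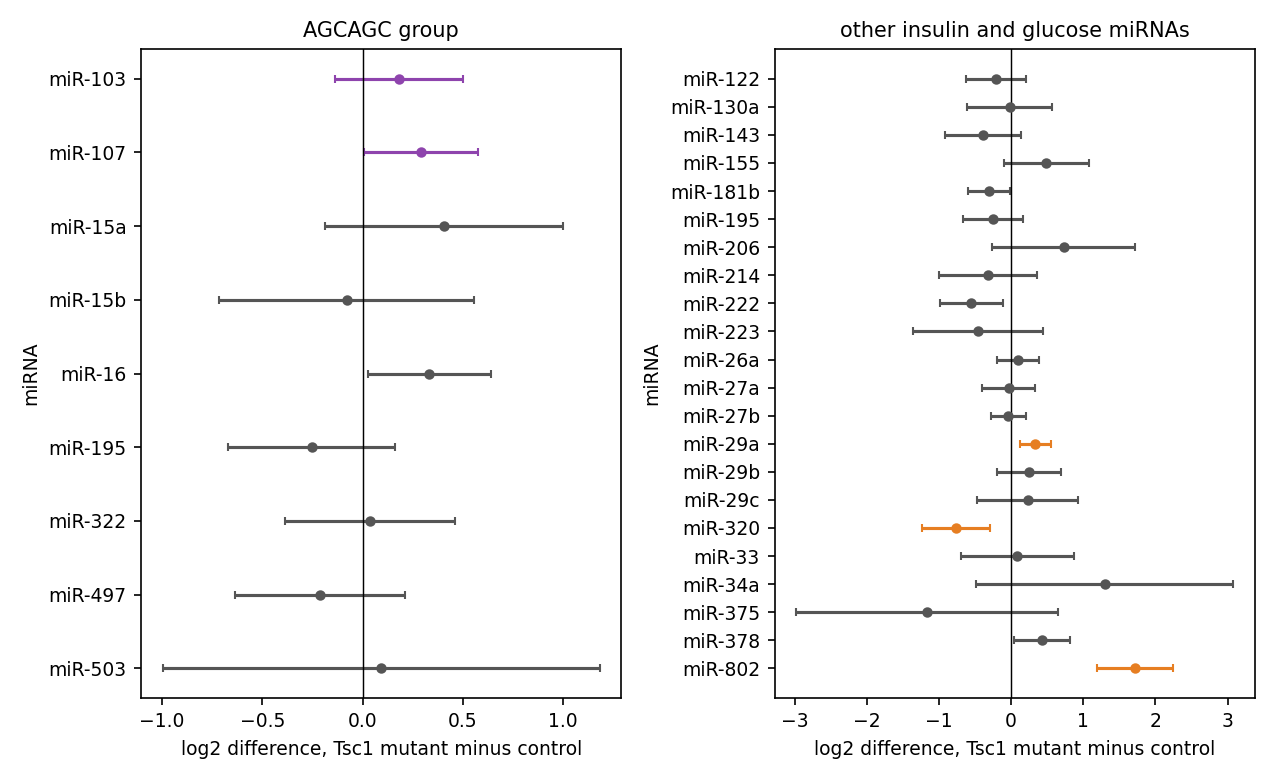
Log2 difference, Tsc1 mutant minus control (horizontal axis), with its 95% limma interval for each miRNA of the AGCAGC group and of the insulin and glucose list. Purple marks miR-103 and miR-107, orange marks miRNAs past an adjusted p of 0.05 (miR-802, miR-29a and miR-320), and grey marks the others.

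Deviations from the genotype means showed which miRNAs followed the members from library to library. Over 10 libraries the log2 values of miR-103 followed those of miR-26a (Pearson r = 0.960), miR-214 (r = 0.944) and miR-139-5p (r = 0.936) most closely, and ran most opposite to miR-129-5p (r = -0.911). Those of miR-107 followed miR-194 (r = 0.887), miR-31 (r = 0.770) and miR-16 (r = 0.701), and ran most opposite to miR-99b (r = -0.857). Between miR-103 and miR-107 r was 0.327, and 100 miRNAs had a higher r with miR-103 and 46 a higher one with miR-107. These are the extremes among 284 candidates on 10 values that share libraries and scaling, and they are given as a description. The largest deviations of miR-103 were -0.31 in control replicate 1 and 0.36 in control replicate 4, and those of miR-107 were 0.25 in control replicate 4 and -0.24 in control replicate 5. In control replicate 1 the members went apart, with miR-107 at 0.18 above its mean.

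None of these 6 most alike miRNAs passed. The log2 differences were 0.10 for miR-26a, -0.32 for miR-214, -0.15 for miR-139-5p, -0.03 for miR-194, -0.10 for miR-31 and 0.33 for miR-16. All had a limma adjusted p of 0.179 or more.

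Cell type markers were measured beside the members, and their part in the members' values was not tested. The hepatocyte list had 1 call among 5, the rise of miR-802, where 13% of all miRNAs were called. Its sum ran from 3713771 to 4565320 normalised reads in Tsc1 mutants and from 3424625 to 5492139 in controls. No member of the other lists passed. The summed ranges were 3431 to 6533 in mutants and 3886 to 5924 in controls for 3 erythroid miRNAs (most abundant, miR-486). They were 136281 to 249935 in mutants and 168842 to 369484 in controls for 7 stellate and smooth muscle miRNAs (miR-143). For 5 biliary epithelial miRNAs (miR-200b) they were 3126 to 7014 in mutants and 4996 to 35789 in controls. For 3 striated muscle miRNAs (miR-1a) they were 151 to 919 in mutants and 268 to 5638 in controls. For 2 neural miRNAs (miR-219-5p) they were 56.6 to 93.0 in mutants and 66.4 to 175 in controls. The most abundant leukocyte miRNA was miR-146a, and the most abundant endothelial one miR-126-3p.

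Fat is a further tissue in which miR-103 and miR-107 act. The 2 measured miRNAs of 4 on an adipose list were miR-365 and miR-455. They summed to 1785 to 2864 normalised reads in Tsc1 mutants and 3490 to 7364 in controls, without overlap. Taken singly, 2.46% of all miRNAs lay below controls in this way, but no such share was computed for sums. Among the measured cell type lists, only this sum was without overlap, so it is the extreme of several looked at. Neither of its miRNAs passed. Singly their log2 differences were -0.66 for miR-365 and -1.37 for miR-455, with limma adjusted p-values of 0.461 and 0.179. Both miRNAs are also made outside fat.

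Abundant members of the Dlk1-Dio3 imprinted locus were set beside the pair after their values were seen, so their shared rise follows from that choice. These 5 rose at log2 differences of 2.55 to 2.85, where 10.9% of all miRNAs were called higher. In the same libraries miR-103 stood at 0.18 and miR-107 at 0.29. Rises that large do not show whether differences as small as those of the pair could be called.

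**Figure D4:**
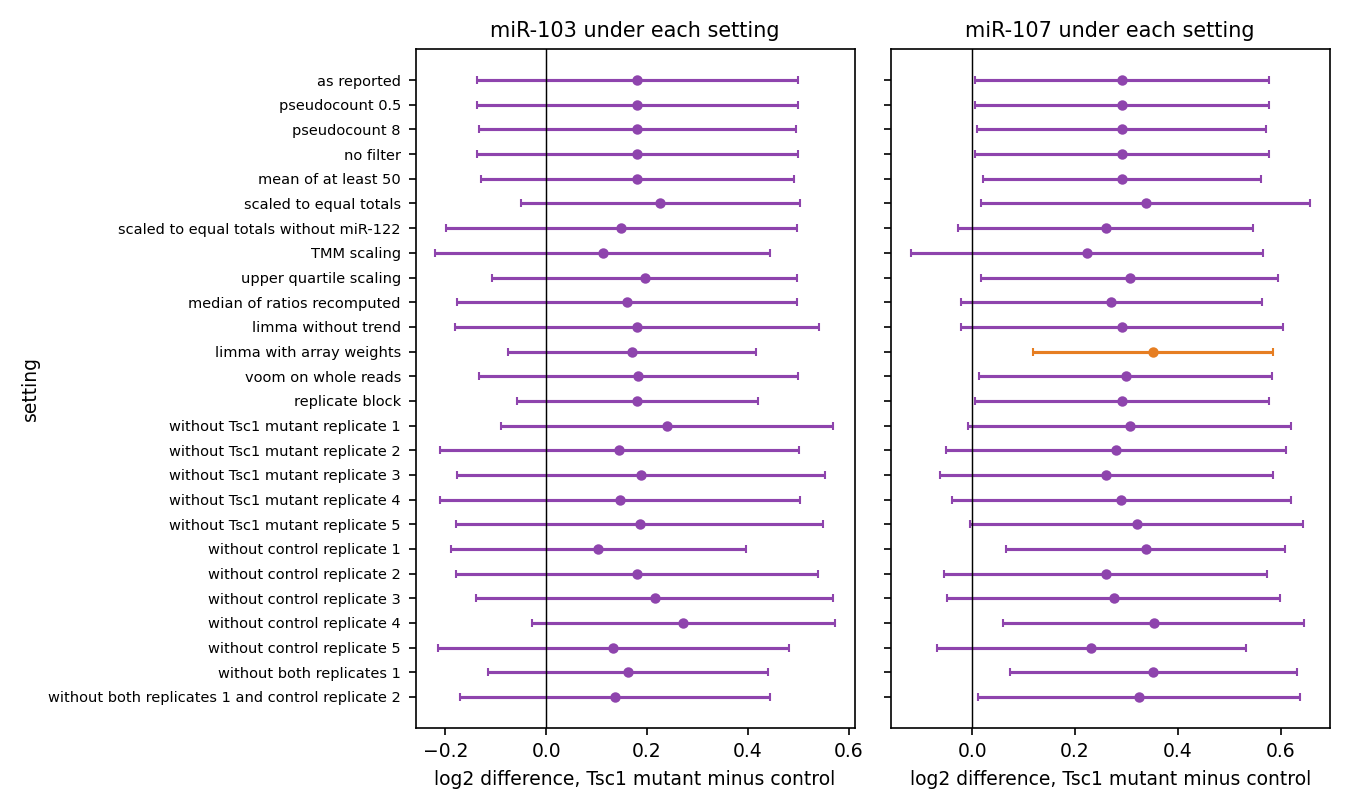
Log2 difference, Tsc1 mutant minus control (horizontal axis), of miR-103 and miR-107 with 95% intervals under the reported fit and 25 other settings (vertical axis). All points lie above 0, from 0.10 to 0.27 for miR-103 and from 0.22 to 0.35 for miR-107, and orange marks the 1 setting past an adjusted p of 0.05, miR-107 with array weights.

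Both members stayed above 0 under each of 25 other settings, of which that without the minimum mean repeated the reported fit. The log2 difference of miR-103 ran from 0.10, without control replicate 1, to 0.27, without control replicate 4, and passed under none of them, with limma adjusted p-values of 0.292 to 0.752. That of miR-107 ran from 0.22, with TMM scaling, to 0.35, without control replicate 4, and passed with array weights alone. When any single library other than control replicate 1 or 4 was left out, the 95% interval of miR-107 reached below 0. It also did so with TMM scaling (-0.12 to 0.57), recomputed median-of-ratios scaling, equal totals without miR-122, and no intensity trend.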

How the data were processed

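Small RNA libraries were made from 1 µg of total RNA that had been extracted from mouse liver with TRIzol, and were read on an Illumina HiSeq, per the labels' protocols. The authors deposited a normalised signal, 1 column per library, and DESeq is named per the submitters' processing notes. The sources used here do not give the aligner, annotation or build. Columns were matched to samples by library number. In each library 100% of values were whole multiples of 1 step within 0.001, which gave the reads. Intervals cover counting error only, since reads without molecular identifiers are not independent molecules.

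Genotypes were compared with limma 3.58.1 (R 4.3.3) on log2(normalised value + 1), a scale on which fold changes of low miRNAs are understated (genotype model, intensity trend, Benjamini-Hochberg adjustment over 285 miRNAs, threshold 0.05). A minimum mean of 5 normalised reads removed none. Ratios used 2-sided exact permutation over 252 splits (smallest p 0.00794). The fit was tested on simulated data. Likeness was Pearson's r of deviations from genotype means. Named were the members, the measured AGCAGC group (miR-15, miR-16 and relatives), insulin and glucose miRNAs that passed and the 3 most abundant that did not, the 3 most and 1 least alike, neighbours in level, and the top miRNA of each marker list. The Dlk1-Dio3 examples, and miR-365 and miR-222 with miR-34a, were named after their values were seen. Members, lists and tests were chosen with earlier results of these data known. An exocrine pancreas list had 0 measured members. Names and hairpin positions came from RefSeq and GENCODE M21.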

Additional observations from a re-analysis of the deposited data

Results flagged for a closer look

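Of 44 groups of 5 values, 8 had 1 library set apart from the other 4 by a wide gap, where chance gives about 2.2. The groups overlap, since ratios and list sums reuse the same libraries and both ratios hold miR-103. Control replicate 1 accounted for 5 of them. It was the lowest control for the ratio of miR-103 to miR-107, at 7.21 against 10.5 to 11.7 in the other 4, and for the ratio of miR-103 to miR-16, at 3.62 against 4.93 to 5.18. It was also the highest control for miR-15a, at 1335 against 466 to 707 normalised reads, and for the leukocyte sum, at 33403, and the lowest for the endothelial sum, at 113035. Among controls, replicate 2 had the highest biliary epithelial sum, at 35789, and the highest striated muscle sum, at 5638 normalised reads. The 5 Dlk1-Dio3 examples had their lowest mutant sum in replicate 5, at 11669 against 18414 to 19914 normalised reads. The levels of miR-103 and of miR-107 themselves held no such library in either genotype.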

How the results depend on the processing

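The difference of miR-103 kept its direction and stayed short of the threshold in 25 of 25 settings, and that of miR-107 in 24, the other being array weights at 0.35 (limma adjusted p = 0.0341). Among these settings, that without the minimum mean repeated the reported fit. Pseudocounts of 0.5 and 8 could hardly move values this high. Leaving out single libraries moved miR-103 between 0.10 and 0.27 and miR-107 between 0.23 and 0.35. Both ratios passed without control replicate 1 and without both replicates 1 (-0.19 for miR-107 and -0.26 for miR-16). With control replicate 2 left out as well, they were at -0.19 and -0.28, and the adjusted exact permutation p was 0.0571 for both. Control replicate 1 was the outlying control of both ratios, so these passes are descriptive. Leaving out single libraries moved the ratio to miR-107 between -0.23 and -0.060 and that to miR-16 between -0.25 and -0.12; the cause was not tested. The log2 difference of the summed level ran from 0.12 to 0.28 over 13 settings.

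All miRNAs called numbered 37, and 22 when the mean had to reach 50 normalised reads, where fewer were tested, and 63 with array weights. The 6 lower calls became 10 with TMM scaling or a replicate block, 11 without both replicates 1, 13 with control replicate 2 left out as well, and 3 at the higher minimum. The other AGCAGC miRNAs gave 0 calls, 1 with array weights, and 0 to 1 when single libraries were left out. The insulin and glucose list gave 3, and 5 with array weights, without both replicates 1, and with control replicate 2 left out as well, and 1 to 5 when single libraries were left out. Over all 285 miRNAs, calls numbered 46 without both replicates 1 and 49 with control replicate 2 left out as well. They numbered 30 to 44 when single libraries were left out. The list gave 2 calls, miR-29a being lost, with equal totals, equal totals without miR-122, TMM, upper quartile scaling or no trend. Same-numbered libraries deviated together with correlations of 0.81, 0.16, -0.021, 0.46 and 0.048, so the numbers were not taken to pair them. With a replicate block 45 miRNAs passed, 4 of them on the insulin and glucose list with miR-378 added, miR-103 stayed at 0.18 (limma adjusted p = 0.300) and miR-107 at 0.29 (limma adjusted p = 0.164). The ratios then had an exact sign-flip adjusted p of 0.438. With 5 pairs that test cannot reach 0.05, so neither ratio could have passed. In 2 of 5 mutants the most alike control bore the same number. Count-model tests on the recovered reads were planned and not run.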
